A study of Aedes albopictus with 4 samples.

Results

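LOC109412453 and LOC109430352 are a pair of Aedes albopictus genes whose product is named juvenile hormone esterase-like. They are 2 of the 25320 genes in the deposited table and 2 of the 15 genes there whose product name holds the words juvenile hormone esterase. The pair was chosen by its measured values, the diquat against control fold changes, which were strongly negative for both genes, so the diquat against control values of the pair are given as a description with no test. The other 13 genes of that name are set beside them.

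Aedes albopictus is the Asian tiger mosquito. RNA of whole fourth-instar larvae, the last larval stage, was sequenced at 72 h. In 2 libraries the larvae had been exposed to diquat, a bipyridyl herbicide that passes electrons to oxygen, at 1/5 of the LC50 (the concentration that kills 50% of the animals), and 2 libraries came from larvae given no treatment. No strain or age is given in the labels used here, and no label describes the libraries of a group as separate batches of larvae, so p-values measure only the spread between these libraries, which may be technical. The table gives normalized counts, in which each library's read counts are scaled by a single factor; the reads recovered from them were 45243090 and 48383964 in the diquat libraries, against 34502559 and 39242657 in the control libraries. In whole larvae, fewer cells of a type and less RNA per cell cannot be told apart.

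Juvenile hormone is a sesquiterpenoid made in the corpora allata from farnesyl pyrophosphate through farnesol, farnesal and a methyl ester step. It keeps an insect in the larval state, and in moths its fall in the last larval instar opens the way to metamorphosis. Juvenile hormone esterase, an enzyme of the carboxylesterase family secreted into the blood mainly by the fat body, cuts the methyl ester and yields the inactive acid, while epoxide hydrolases open the epoxide ring of the hormone. Product names ending in "-like" rest on sequence similarity, and no enzyme activity was measured here.

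LOC109412453 had 1418 and 1389 normalized counts in the diquat libraries, against 5386 and 5507 in the control libraries. These values rested on 1547 and 1628 recovered reads in the diquat libraries and 4503 and 5278 in the control libraries. LOC109430352 had 2074 and 2027 normalized counts in the diquat libraries, against 6377 and 6436 in the control libraries. The diquat libraries lay far below the control libraries for both genes, and libraries of 1 group differed little from each other. The recovered reads of LOC109430352 were 2264 and 2375 with diquat and 5332 and 6168 in controls.

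The mean of LOC109412453 was 1403 ± 19.8 normalized counts with diquat and 5446 ± 85.6 in controls (SD, n = 2 each), so that 25.8% of the control level was left. For LOC109430352 the means were 2051 ± 33.6 with diquat and 6406 ± 41.1 in controls (SD, n = 2 each), which is 32.0% of the control level. Their log2 fold changes, on the log2(value + 1) scale, were -1.96 ± 0.04 and -1.64 ± 0.04 (limma's moderated SE). Of 17992 genes tested, 2.82% were lower by at least 2-fold at a limma adjusted p under 0.05; since that contrast chose the pair, nothing is read from its place among them.

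The fall was deeper in LOC109412453. Its value was 0.683 and 0.685 times that of LOC109430352 in the diquat libraries, against 0.845 and 0.856 times in the control libraries. That ratio of counts is not corrected for transcript length, and it too comes from the contrast that chose the pair. Leaving out each library in turn gave log2 fold changes from -1.97 to -1.94 for LOC109412453 and from -1.66 to -1.63 for LOC109430352.

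**Figure D1:**
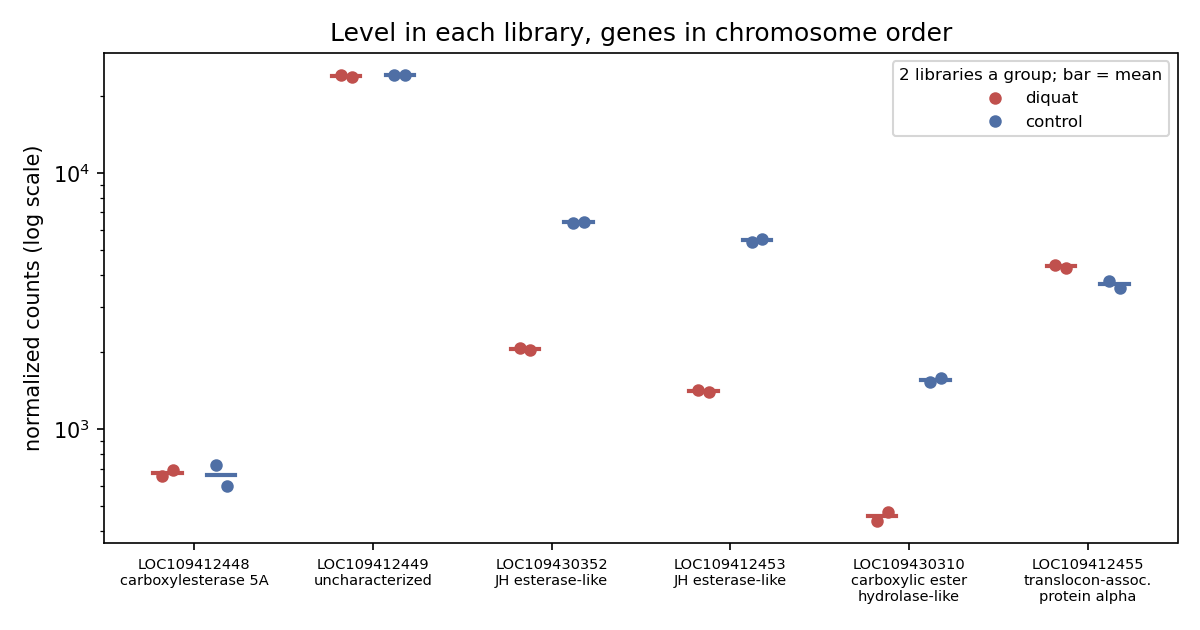
Normalized counts (log axis) of 6 genes that follow each other on 1 chromosome, with the 2 diquat libraries (red) left of the 2 control libraries (blue) and bars at the group means. LOC109430352, LOC109412453 and LOC109430310 are each lower in both diquat libraries, while LOC109412448 and LOC109412449 on one side show diquat and control libraries at about the same level and LOC109412455 on the other side is slightly higher with diquat.

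A feature that the choice of the pair did not use is its place in the genome. In the gene order of the AalbF5 assembly of Aedes albopictus, which may not be the build the authors used and served here only for neighbours and overlaps, LOC109430352 and LOC109412453 stand next to each other with 0 genes between them. Neither overlaps another gene there. No source used here states how reads that match both copies of such a pair were counted, and the protein sequences were not analysed here.

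The gene on the far side of LOC109412453 is also an esterase. LOC109430310, named carboxylic ester hydrolase-like, a broad name for enzymes that cut carboxyl esters, had 438.0 and 474.5 normalized counts in the diquat libraries, against 1519 and 1588 in the control libraries. Both diquat libraries lay below both control libraries, as in 35.5% of all tested genes, and 29.4% of the control mean was left. It fell by 1.77 on the log2 scale (SE 0.08, limma adjusted p = 1.32e-16). Its value was 0.211 and 0.234 times that of LOC109430352 with diquat, against 0.238 and 0.247 times in controls, so the ratio stayed closer between groups than that of LOC109412453 to LOC109430352.

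The gene before the pair did not pass the test. LOC109412449, which the table leaves uncharacterized, had 24009 and 23691 normalized counts in the diquat libraries, against 24003 and 24027 in the control libraries. The log2 fold change was -0.01 ± 0.02 (limma adjusted p = 0.683). With quantile normalization, however, it was -0.22 and passed the test (adjusted p = 7.73e-09). One gene further out, another esterase, LOC109412448, named carboxylesterase 5A, had 656.1 and 690.5 normalized counts with diquat, against 721.2 and 598.9 in controls, and the diquat libraries lay between the control libraries.

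Over the 8 genes before the pair and the 8 after it, the test called 8 genes higher and, beside LOC109430310, 1 gene lower. Of the 15 other than LOC109430310, 5 were tested and not called, and 1 was too low to test. Over all 17992 tested genes, 48.8% were called in either direction, 26.7% higher and 22% lower. The largest rise was that of LOC109430333, at 3.24 ± 0.10 on the log2 scale (SE, limma adjusted p = 1.11e-19). LOC109412439 followed at 2.31 ± 0.20 (limma adjusted p = 3.71e-10). Both are uncharacterized and lie inside LOC109430330, as does LOC109412442, at 0.95 ± 0.06 (limma adjusted p = 8.69e-13). The higher neighbours also included acyl-CoA Delta-9 desaturase (LOC109412434), which puts a double bond into fatty acids, at 0.75 ± 0.02 (limma adjusted p = 1.16e-19). On the other side stood the translocon-associated protein subunit alpha (LOC109412455), part of the machinery that brings proteins into the endoplasmic reticulum, at 0.23 ± 0.04 (limma adjusted p = 2.28e-05), a call lost with a constant variance prior (adjusted p = 0.0794) and a value of 0.10 with the trend on genomic span removed. The 1 lower gene, zinc finger protein 37 (LOC109412460), stood at -0.27 ± 0.08 (limma adjusted p = 0.00434), a call lost in 3 alternatives: without diquat replicate 1 (adjusted p = 0.0668), with a constant variance prior (0.0512) and with that trend removed (-0.13, adjusted p = 0.174). The neighbours named here were picked out for their values or place after those were seen.

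Across the genome, 485 genes on a chromosome were called lower by at least 2-fold, and 165 of them (34.0%) stood directly beside another such gene among the tested genes. They formed 17 runs of 3 or more genes, of which 10 held a gene named for a cuticle protein and 7 did not. The 3 esterase genes made up 1 of those 7 runs. Another was 3 genes named protein obstructor-E, a chitin-binding protein of the cuticle in Drosophila. Runs of lowered neighbours were therefore not peculiar to the esterases.

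**Figure D2:**
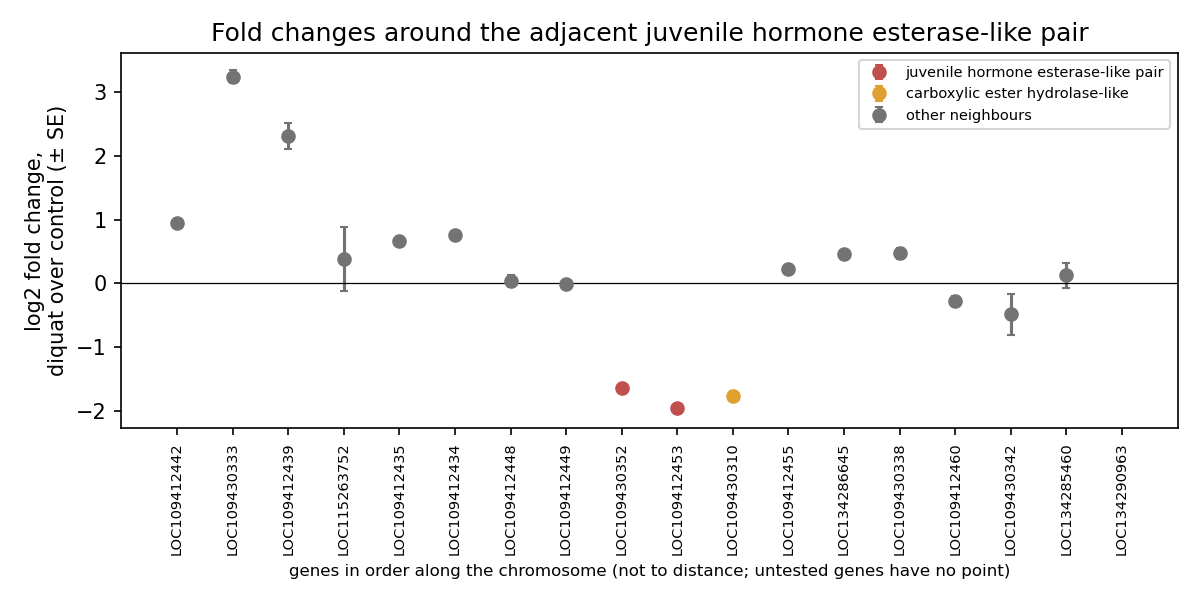
Log2 fold changes (diquat over control, on the log2(value + 1) scale, ± limma SE) of the tested genes among the 18 that run from 8 before the juvenile hormone esterase-like pair to 8 after it, in gene order and not to distance. The pair and LOC109430310 lie between -1.96 and -1.64, and the other tested genes shown run from -0.48 to 3.24.

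The other 13 genes named juvenile hormone esterase went in both directions. Since the pair was chosen for its fall, nothing is read from the lack of so deep a fall among them. Of these, 11 reached a mean of 10 normalized counts and were tested; 4 rose, 4 fell and 3 did not pass the test, at a background of 26.7% higher and 22% lower. The median log2 fold change was -0.16, against 0.00 over all tested genes. None of the 4 that fell did so by 2-fold, while 2 of the 4 that rose did, which 2.33% of all tested genes did.

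LOC109414915 and LOC115259962, both juvenile hormone esterase-like, had the largest rises. LOC109414915 had 348.2 and 371.3 normalized counts in the diquat libraries, against 111.2 and 94.9 in the control libraries (log2 fold change 1.80 ± 0.16, SE, n = 2 per group, limma adjusted p = 3.41e-10). It lies inside the uncharacterized LOC109428912, whose own log2 fold change was 0.25, and whether reads were counted for both is not known. LOC115259962 had 351.9 and 390.9 normalized counts with diquat, against 90.9 and 147.1 in controls (log2 fold change 1.67 ± 0.18, SE, n = 2 per group, limma adjusted p = 1.32e-08). For both genes each diquat library stood above both control libraries, as in 6734 of all 17992 tested genes. These 2 genes are on the same chromosome with 19 genes between them, and LOC115259962 overlaps no other gene.

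The other 2 rises were smaller. LOC134287661 had 679.0 and 607.7 normalized counts with diquat, against 411.4 and 424.7 in controls, a rise of 0.62 ± 0.10 on the log2 scale (SE; limma adjusted p = 5.97e-06). It lies inside LOC109427628, which fell by 0.38 on the log2 scale. LOC109419295, with no overlapping gene, had 1721 and 1824 normalized counts with diquat, against 1364 and 1391 in controls (log2 fold change 0.36 ± 0.06, limma adjusted p = 6.17e-06).

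Among the 4 that fell, LOC109417756 had 768.8 and 886.8 normalized counts with diquat, against 1383 and 1395 in controls. Its log2 fold change, -0.75 ± 0.07 (SE; limma adjusted p = 1.93e-09) was the lowest of that name outside the pair. LOC109409689 had 739.4 and 724.6 normalized counts with diquat, against 1087 and 1183 in controls (log2 fold change -0.63 ± 0.07, limma adjusted p = 5.58e-08). LOC115257675 had 240.1 and 242.4 normalized counts with diquat, against 334.9 and 369.4 in controls (log2 fold change -0.54 ± 0.13, limma adjusted p = 0.000833). In these 3 genes the groups did not overlap, as in 35.5% of all tested genes, in which both diquat libraries lay below both control libraries.

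LOC109409689 belongs to a row of 4 genes of that name on another chromosome, with 0 genes between them. The next in the row, LOC109409690, was too low to test, with 1 and 0 recovered reads in the diquat libraries and 5 and 3 in the control libraries. LOC109409691 had 44.9 and 44.4 normalized counts with diquat, against 47.8 and 52.2 in controls, and did not pass the test (log2 fold change -0.16 ± 0.31, limma adjusted p = 0.6999). LOC109409692, at the end of the row, had 2516 and 2576 normalized counts with diquat, against 2957 and 3023 in controls, and fell by 0.23 on the log2 scale (SE 0.04, limma adjusted p = 7.27e-05). With a constant variance prior that adjusted p was 0.056. LOC109409692 overlaps one end of LOC109409693, which rose by 0.51 on the log2 scale.

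The 3 remaining genes of the name did not pass the test or had too few reads for it. LOC109411169 had 281.3 and 260.3 normalized counts with diquat, against 313.4 and 293.2 in controls (log2 fold change -0.16 ± 0.13, limma adjusted p = 0.309). LOC115257694 had 105.4 and 81.9 normalized counts with diquat, against 100.5 and 153.4 in controls, and the groups overlapped (log2 fold change -0.41 ± 0.23, limma adjusted p = 0.141). Without control replicate 1 it passed the test, at -0.72 (limma adjusted p = 0.0121). LOC109433519 was too low to test, with 5 and 2 recovered reads with diquat and 0 and 2 in controls.

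**Figure D3:**
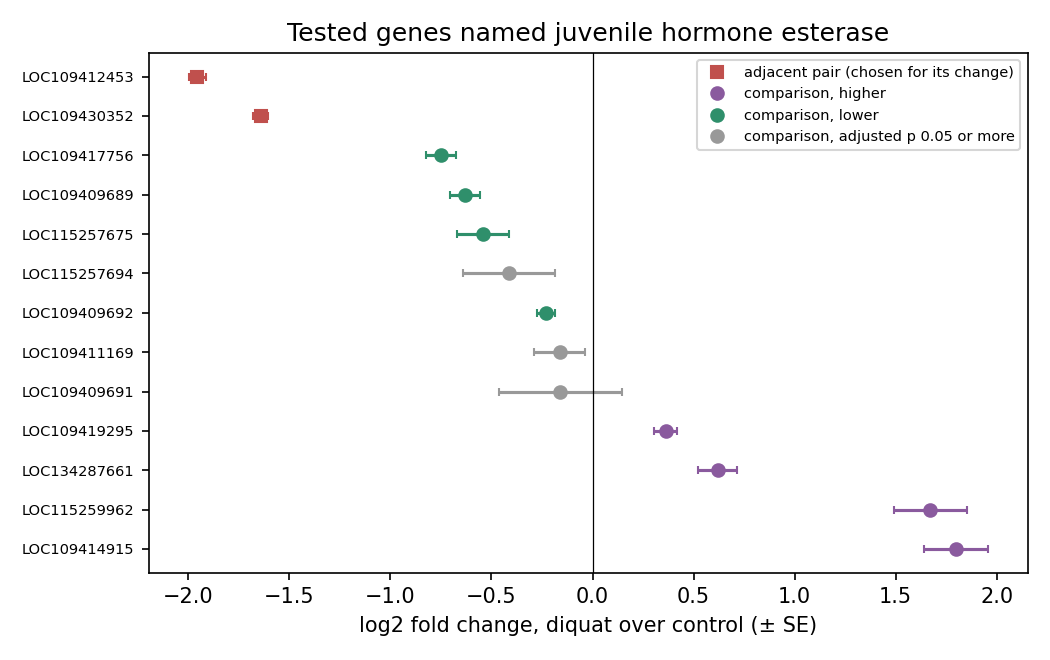
Log2 fold changes (diquat over control, on the log2(value + 1) scale, ± limma SE) of the 13 tested genes named juvenile hormone esterase, sorted from lowest to highest. The adjacent pair (red squares, chosen for this change) lies at -1.96 and -1.64, and the 11 comparison genes (circles) run from -0.75 to 1.80.

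Because the pair gave many of the reads counted under this name, its fall set most of the change in their sum. The pair was chosen for that fall, so nothing further is read from the sum or from the pair's share of it. The 15 genes together had 11293 and 11428 normalized counts in the diquat libraries, against 19969 and 20474 in the control libraries. The pair made up 30.9% and 29.9% of that sum with diquat, against 58.9% and 58.3% in controls. The other 13 genes summed to 7801 and 8012 normalized counts with diquat, against 8206 and 8532 in controls. These are sums of read counts, not corrected for length, so they weigh long transcripts more.

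In the wider esterase family genes went in both directions. Of 38 other genes with a name of the carboxyl and choline esterase family, 36 were tested, of which 10 rose and 11 fell (26.7% and 22% over all genes), with a median log2 fold change of 0.00. LOC109430310 was the 1 gene of the list that fell by 2-fold, which 2.82% of all tested genes did. Another 2 genes of the list rose by 2-fold, which 2.33% of all tested genes did. A glutactin-like gene (LOC109396993) had 693.6 and 761.3 normalized counts with diquat, against 209.3 and 183.6 in controls. It rose by 1.88 on the log2 scale (SE 0.11, limma adjusted p = 1.96e-13); glutactin is a basement membrane protein with an esterase-like domain in Drosophila. Venom carboxylesterase-6 (LOC109406417) rose by 0.93 and another carboxylesterase 5A gene (LOC109403315) by 0.64, each inside a larger gene. The list was made from product names and also holds neuropathy target esterase, the Wnt deacylase NOTUM and a nucleotidase, which are not of this enzyme family.

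For the other route of hormone breakdown, the 2 tested genes named for juvenile hormone rose least, by 0.16 and 0.13 on the log2 scale. Of 5 genes named for an epoxide hydrolase, 4 were tested and all 4 rose (26.7% of all genes did). Epoxide hydrolase 4 (LOC109411617) had 511.3 and 509.5 normalized counts with diquat, against 362.4 and 351.6 in controls (log2 fold change 0.51 ± 0.10, limma adjusted p = 0.000161). Epoxide hydrolase 1 (LOC109426003) had 3625 and 3463 normalized counts with diquat, against 2964 and 3055 in controls (log2 fold change 0.24 ± 0.04, limma adjusted p = 3.21e-05). The first carried the largest rise of the 4. Juvenile hormone epoxide hydrolase 1 (LOC109420926) had 2714 and 2758 normalized counts with diquat, against 2447 and 2434 in controls (log2 fold change 0.16 ± 0.04, limma adjusted p = 0.00314). Juvenile hormone epoxide hydrolase-like LOC109412662 had 3937 and 3865 normalized counts with diquat, against 3536 and 3612 in controls (log2 fold change 0.13 ± 0.04, limma adjusted p = 0.00768). In all 4 genes both diquat libraries lay above both control libraries, as in 6734 of all 17992 tested genes. With a constant variance prior 1 of the 4 calls was left, that of LOC109411617, which lies inside LOC134290519. The 2 genes named for juvenile hormone lie inside LOC109420928, and with each library's trend on genomic span removed LOC109412662 turned to -0.04 and was not called (adjusted p = 0.43), nor was it without diquat replicate 1 (adjusted p = 0.0911).

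On the side of synthesis, farnesol dehydrogenases, named for the enzyme that oxidises farnesol to farnesal, were higher. Only the product name places these genes in hormone synthesis here, and their part in it was not tested. Of 20 tested genes of that name, 12 rose and 0 fell, at a background of 26.7% and 22%, and 5 rose by at least 2-fold. The most abundant, LOC109400780, had 11398 and 11198 normalized counts with diquat, against 5690 and 5364 in controls (log2 fold change 1.03 ± 0.03, limma adjusted p = 3.31e-20). LOC109399572 had 2791 and 2675 normalized counts with diquat, against 1252 and 1156 in controls (log2 fold change 1.18 ± 0.06, limma adjusted p = 6.66e-16). Of the 12 that rose, 6 lie inside LOC109400777; of the 10 tested that overlap no other gene, 6 rose. The farnesol dehydrogenases were set apart from the other enzymes of synthesis after the values were seen.

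Of the 9 other enzymes of synthesis, all tested, 1 rose, 1 fell and 7 did not pass the test, at the same background of 26.7% and 22%. A phosphomevalonate kinase (LOC115256457) rose by 0.61 on the log2 scale (SE 0.25, limma adjusted p = 0.0491), a call lost in 8 alternatives, among them the omission of any 1 library. The gene that fell was 3-hydroxy-3-methylglutaryl-coenzyme A reductase (LOC109430221), the enzyme that commits carbon to the mevalonate pathway, at a log2 fold change of -0.17 (limma adjusted p = 0.00173), which turned to 0.05 with the trend on genomic span removed and was not called without diquat replicate 1 (adjusted p = 0.0514). Juvenile hormone acid O-methyltransferase (LOC109408242), which makes the methyl ester that the esterase cuts, had 153.0 and 183.5 normalized counts with diquat, against 178.2 and 157.5 in controls. The groups overlapped and the test was not passed.

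A list of response genes, taken from product names, holds genes named Krueppel homolog 1, broad-complex and nuclear receptor coactivator, some of which carry other names too and have no known tie to this hormone. Of its 11 genes 10 were tested, of which 1 rose and 4 fell, against 26.7% and 22% over all genes. With the trend on genomic span removed 4 rose and 2 fell. Krueppel homolog 1 (LOC109409311), a transcription factor that juvenile hormone switches on, had 1757 and 1867 normalized counts with diquat, against 1338 and 1272 in controls, and rose by 0.47 on the log2 scale (SE 0.06, limma adjusted p = 1.44e-07). It is not placed on a chromosome, so its overlaps are unknown. LOC109416279, whose product is named both Krueppel homolog 1 and sal-like protein 3 and which overlaps 2 genes, fell by 0.72 (limma adjusted p = 8.22e-06). Of the 4 that fell, LOC109622365, named nuclear receptor coactivator 7 among others, turned to 0.16 with the trend on genomic span removed. Over all 43 tested genes of the pathway beside the esterases, 18 rose and 5 fell (26.7% and 22% over all genes). Of the 18, 12 were farnesol dehydrogenases, 6 of them inside LOC109400777. The 5 that fell became 2 with a constant variance prior and 2 with the trend on genomic span removed.

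**Figure D4:**
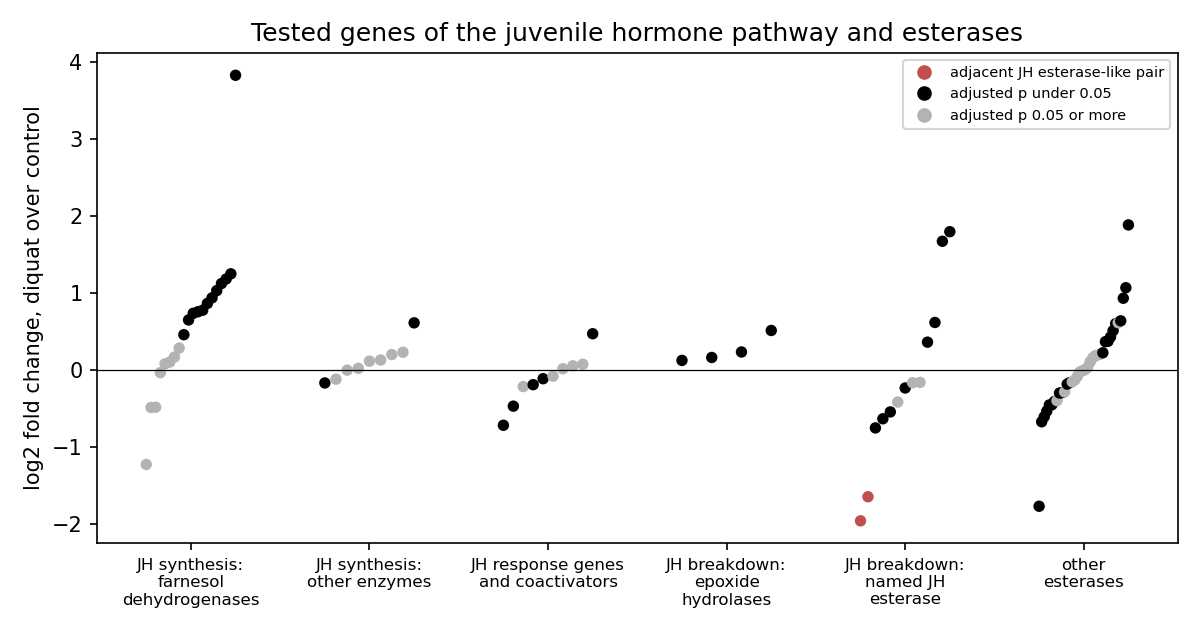
Log2 fold changes (diquat over control, on the log2(value + 1) scale) of the tested genes of juvenile hormone synthesis, response and breakdown and of the other esterases, 1 point per gene, spread sideways for legibility. The pair (red) lies at -1.96 and -1.64, the other tested gene below -1.5 is LOC109430310 among the other esterases, and 12 of 20 farnesol dehydrogenases are called (black), all of them above 0.

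Likeness to the pair over the 4 libraries was the root mean square difference of log2(value + 1), centred over the 4 libraries, among 9769 genes with a described product and a mean of at least 50. For LOC109412453 the closest was larval cuticle protein A2B-like (LOC109429135, difference 0.018), with 194.3 and 191.2 normalized counts with diquat, against 760.7 and 752.3 in controls. The next were a gene named for protein kinase DDB_G0268078 (LOC134287873, 0.032), 85.1% of whose value lies in nested genes, and glycine-rich protein 3 (LOC109424139, 0.042). For LOC109430352 the closest were pupal cuticle protein Edg-78E-like (LOC109420201, 0.015), collagenase (LOC109398533, 0.017) and pupal cuticle protein C1B (LOC109421165, 0.018). Among the 9769 genes, LOC109430352 itself ranked 35 for LOC109412453, and LOC109430310 ranked 17. For LOC109430352 the ranks were 63 for LOC109412453 and 24 for LOC109430310. Of the closest genes, LOC109429135 lies inside LOC109409011 and LOC109398533 inside LOC115253617. With 2 groups of 2, such likeness mostly sorts genes by the size of their fold change, the measure that chose the pair.

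Markers of the larval stage and of 2 tissues moved in these libraries beside the pair. Larval cuticle protein genes, made by the epidermis, summed to 42183 and 41599 normalized counts with diquat, against 78553 and 78106 in controls, and 23 of 31 tested fell and 1 rose. Over all genes 22% fell and 26.7% rose. Pupal cuticle protein genes summed to 165145 and 165396 with diquat, against 203932 and 202466 in controls, with 10 of 14 lower and 2 higher. Most of that sum came from LOC109422066 and LOC109422065, both inside LOC109422062 and each at a log2 fold change of -0.24. The median log2 fold change of the pupal list was -0.48. Hexamerins, storage proteins of the fat body, summed to 814297 and 816239 with diquat, against 977581 and 981784 in controls, with 4 of 8 lower and 1 higher, and 0 higher with edgeR or DESeq2. The hexamerins that fell included LOC109398361, at a log2 fold change of -0.85 (limma adjusted p = 1.35e-22), and LOC109419367 at -0.54 (limma adjusted p = 3.17e-27). Another, LOC109408442, stood at only -0.07 (limma adjusted p = 0.0220), a call lost in 3 alternatives. The most abundant hexamerin, LOC109420356, was the 1 called higher, at 0.02. It had 448375 and 450720 normalized counts with diquat, against 443735 and 444671 in controls. The other 3 hexamerins did not pass the test. The part of these tissues or of larval stage in the lower values of the pair was not tested.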

How the data were processed

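The authors deposited 1 table with a normalized signal (normalized counts) per gene and library, per the file headers. Per the submitters' processing notes, fastp 0.12.4, DRAGEN, bcl2fastq and STAR 2.7.10a were used, with no role or order. The sources used here do not state the counter, strand setting, build or normalizing tool. Values were whole multiples of 1 step per library (100% of values, tolerance 1e-06), which gave back the reads.

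Genes averaging 10 or more normalized counts over the libraries were tested, diquat against control, with limma 3.58.1 in R 4.3.3 on log2(value + 1) (lmFit and trended eBayes; two-sided tests), Benjamini-Hochberg adjusted over all 17992 tested genes at 0.05. This scale understates changes of low genes. The procedure was tested on simulated data.

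The pair, the lists (product-name patterns) and the alternatives were chosen with earlier results of these data known. Text names the pair, all genes named juvenile hormone esterase, their immediate neighbours, the 3 most alike genes each, and up to 4 genes of smallest p and mean of at least 50 per list. Exceptions are the further neighbours, the other enzymes of synthesis, O-methyltransferase, the pupal cuticle gene LOC109422065 and the hexamerin LOC109420356, picked after their values were seen. Alternatives were other pseudocounts, filters and scalings, a constant variance prior, a replicate block, each library left out, edgeR 4.0.16 and DESeq2 1.42.0 on recovered reads, and, chosen after seeing the data, subtraction, library by library, of the dependence on genomic span (loess with a span of 0.3). All 25320 identifiers matched the AalbF5 gene table.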

Additional observations from a re-analysis of the deposited data

How the results depend on the processing

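The fold change of LOC109412453 was -2.01 with quantile normalization and -2.12 with the trend on genomic span removed, and that of LOC109430352 was -1.71 and -1.81. Under the other alternatives both moved by less than the spread between replicates. For most of these that was fixed in advance. The filters, the constant variance prior and the replicate block leave a fold change as it is, and leaving out a library cannot move it beyond that spread. The 5 lower genes of the juvenile hormone pathway became 2 with a constant variance prior and 2 with the span trend removed, where fold changes of LOC109412662, LOC109430221 and LOC109622365 reversed to -0.040, 0.048 and 0.16. The cause was not tested. The counts for the genes named juvenile hormone esterase, the other esterases and all genes stayed within 1.5 times under each alternative run. edgeR called 4782 genes higher and 4047 lower, and DESeq2 3955 and 3288. Same-numbered libraries did not deviate together (correlation 0.0118), which cannot tell whether the numbers mark a shared batch, and the labels do not say. With the replicate number as a block, 4935 genes were higher and 4121 lower. Genes of a few reads, such as LOC109409690, are below what this depth can compare.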
